A study of Mus musculus with 9 samples.

Results

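The genes described here encode the ubiquitin-specific proteases (USPs), measured by RNA sequencing in 9 libraries of mouse heart. Members were the protein-coding genes whose mouse symbol is Usp followed by a number and an optional letter, and Usp18, which acts on the ubiquitin-like protein ISG15, was left out. The rule gave 49 members among 55401 genes in the deposited table, and 44 of the 49 had enough counts to be tested. The strain was C57BL/6, a common inbred line, throughout, and the labels give neither age nor sex. By treatment label there were 3 libraries labelled Kmo_AngII, from mice given Ang II (angiotensin II, which constricts vessels) under a condition named Kmo that the labels do not explain. A further 3 were labelled AngII, from mice given Ang II, and 3 were labelled Ctrl, from mice given PBS, a salt buffer. The letters that open the sample titles divide the same libraries differently. KKA marks the 3 libraries labelled Kmo_AngII. WA marks AngII replicate 3 and Ctrl replicates 2 and 3, and WC marks AngII replicates 1 and 2 and Ctrl replicate 1. The letters are not explained either. The source is given as heart, while the extraction text mentions an adipose type. Replicate numbers follow sample order only, and nothing says that the libraries came from separate animals. The p-values therefore set differences between groups against the spread of these samples, and that spread may be technical.

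Ubiquitin is a small protein that cells attach to other proteins, singly or in chains, to mark them for degradation by the proteasome or to change their activity or location. Deubiquitinases remove it, and the USPs are the largest of their families. Most USPs are cysteine proteases with a shared catalytic domain and differ in their other domains, partners and substrates. In heart muscle the ubiquitin system takes part in the turnover of contractile proteins, and the study itself concerns JOSD2, a deubiquitinase of another family, the Josephins.

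The libraries held 56827533 to 73194268 counts. Heart muscle markers (8 genes, among them Myh6 and Tnnt2) summed to between 16186.2 and 45083.7 CPM (the usual counts-per-library-size unit, here on library sizes scaled by the TMM method) in each library. The library labelled Kmo_AngII replicate 3 had the lowest of these sums. It also had the highest sums of fibroblast (1875.0 CPM, against 455.6 to 784.9 in the other 8), epicardial (79.0 against 4.1 to 18.4) and adipocyte markers (30.1 against 0 to 5.15). Its atrial markers Sln and Myl7 stood at 289 and 469 CPM. Those of Ctrl replicate 2 were 35.0 and 47.7, and in the remaining 7 libraries both were under 1 CPM. Mitochondrially encoded genes took 30.3% to 55.5% of the counts. USP genes together took 0.0978% to 0.151% of the raw counts in Kmo_AngII, 0.152% to 0.161% in AngII and 0.0899% to 0.111% in Ctrl. After TMM scaling their sum was 1232 to 1319 CPM in Kmo_AngII, 1183 to 1363 CPM in AngII and 1218 to 1320 CPM in Ctrl, so the 3 groups overlapped. In bulk tissue, fewer cells of a type and less RNA per cell cannot be told apart.

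Levels of different members were compared as CPM per kilobase of annotated exon. Usp28, which acts in the DNA damage response and on the MYC protein, had the highest mean, 16.5 ± 4.65 CPM per kilobase (SD over 9 libraries). Next came Usp13 (13.5 ± 4.35), a relative of Usp5 and of the enzymes that handle ubiquitin chains. The third was Usp2 (11.0 ± 2.98), whose transcript is clock-controlled in mouse tissues. Usp19, an enzyme anchored in the endoplasmic reticulum that has been studied in muscle wasting, had 9.99 ± 0.722, and Usp7, known for acting on p53 and MDM2, had 9.24 ± 1.86. These 5 were not cleanly ordered. Usp28 exceeded Usp13 in 8 of 9 libraries, Usp13 exceeded Usp2 in 6 and Usp2 exceeded Usp19 in 5. Of the 45 neighbouring pairs in the order of the 46 detected members, only 3 kept their order in all 9 libraries (Usp7 above Usp8, Usp37 above Usp27x, and Usp27x above Usp29).

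**Figure D1:**
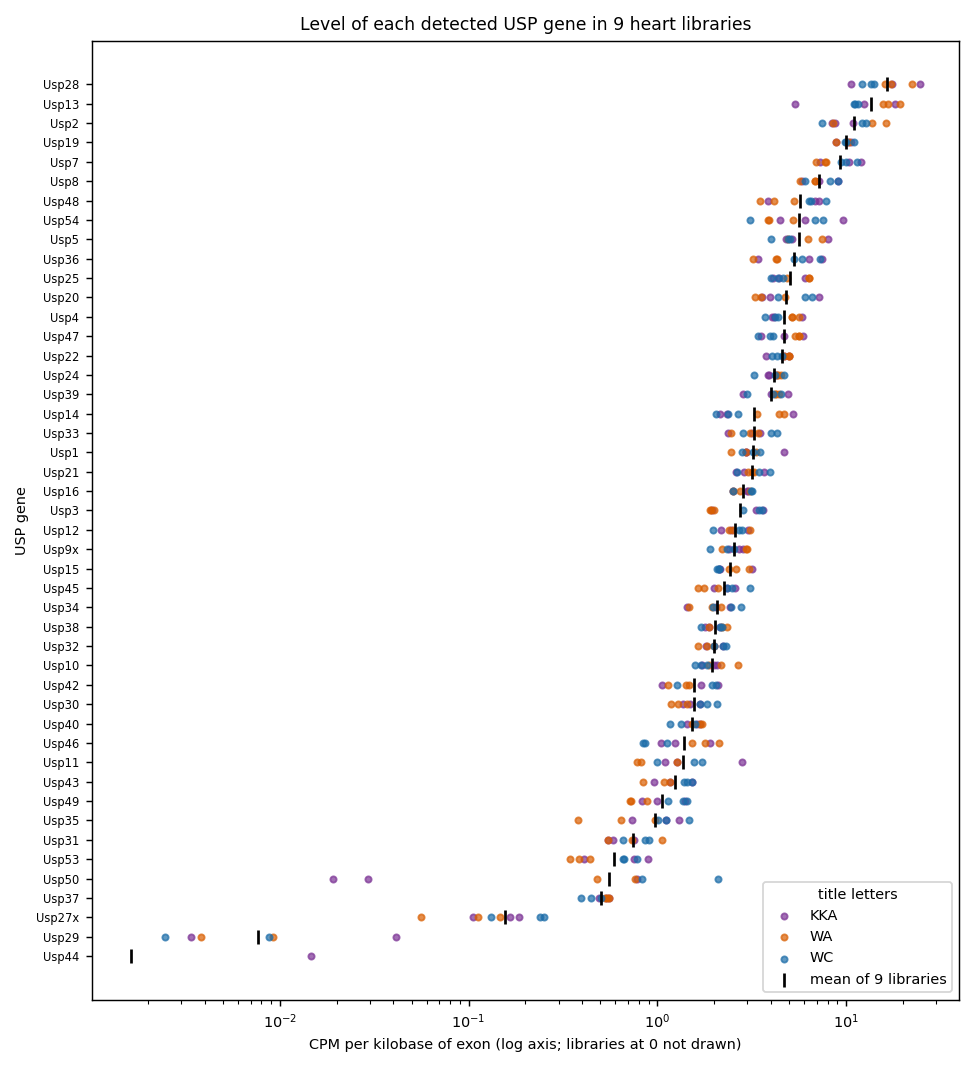
Level of the 46 USP genes detected in at least 1 library, as CPM per kilobase of exon on a log axis, with a point per library coloured by the letters in its title and a bar at the mean of 9 libraries. Usp28 and Usp13 lead with means of 16.5 and 13.5, neighbours overlap along most of the order, and the points of Usp50 and Usp29 spread most widely, with libraries at 0 not drawn.

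The steadiest members belonged to several branches of the family. Among the 43 members with a mean of at least 1 CPM, the coefficient of variation over the 9 libraries had a median of 20.1%. The lowest values were those of Usp19 (7.22%), of Usp22 (9.64%), the histone deubiquitinase of the SAGA complex, of Usp16 (9.82%), a histone H2A deubiquitinase, of Usp24 (10.4%), and of Usp37 (10.6%), a cell cycle enzyme. Usp19 lay between 62.6 and 77.9 CPM in all 9 libraries. The highest values were those of Usp50 (123%), Usp11 (45.3%), which acts in DNA repair, Usp14 (37.7%), Usp54 (37.3%) and Usp35 (34.7%). Usp11 stood at 13.3 CPM in Kmo_AngII replicate 3, against 3.72 to 8.13 CPM in the other 8 libraries. Usp54 was also highest there, at 87.1 CPM, and lowest in AngII replicate 1, at 28.1 CPM. Usp13 was lowest in Kmo_AngII replicate 3, at 40.8 CPM, against 83.9 to 146 CPM elsewhere. That library is the one with the high fibroblast, epicardial, adipocyte and atrial sums given above, and their part in these values was not tested.

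Of the members reported to lack the usual protease activity, Usp39, a splicing factor, averaged 9.84 CPM over the 9 libraries, and Usp53, a protein of tight junctions, ran from 4.33 to 11.2 CPM. Usp50 had 2.43, 0.0915 and 0.0592 CPM in Kmo_AngII, 6.48, 2.59 and 0 CPM in AngII, and 0, 2.36 and 1.49 CPM in Ctrl. High and near-zero libraries occurred in all 3 treatment groups. Usp50 shares 204 exon bases with the pseudogene Gm10774 on the same strand, so its counts are uncertain.

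5 members were at 0 or near 0 in these hearts and were not tested in the main comparisons between groups. Usp9y, Usp26 and Usp51 had 0 counts in every library, which allows up to 0.0410 to 0.0528 CPM of the raw library size (3 counts, for counting error only). Usp44, a mitotic checkpoint enzyme, had 3 counts in Kmo_AngII replicate 3 and 0 elsewhere. Usp29, which is imprinted, had 0 to 38 counts, the highest again in Kmo_AngII replicate 3. Usp27x, an X-linked intronless relative of Usp22, was tested at a mean of 0.664 CPM. Its counts are uncertain where its sequence is like that of Usp22. Usp9y is the Y-linked copy of Usp9x, and its 0 counts stood beside 1590 to 5291 counts of Ddx3y and 545 to 1103 of Uty, also Y-linked, in the same libraries. Usp9x, a large enzyme with many substrates, had 28.7 to 45.1 CPM. Xist had 9 to 45 counts, so all 9 libraries carried Y-linked and little X-inactivation RNA.

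USP genes were called between title letters in a fit chosen because earlier results of these data had shown more calls there. This fit held only the 6 libraries titled WA or WC. In it, 9 of 44 tested members passed an adjusted p of 0.05 (20.5%), 4 higher and 5 lower in WA. The shares over all 18111 genes tested were 13.3% called, 8.06% higher and 5.25% lower. Higher in WA were Usp46, Usp14, Usp13 and Usp47, and lower were Usp3, Usp53, Usp49, Usp48 and Usp36. All tests named here are edgeR quasi-likelihood tests with Benjamini-Hochberg adjustment over all genes tested, log2 differences are the first group minus the second, and each comes with its standard error (SE). The median log2 difference was -0.07 over the 44 members and -0.01 over all genes. These calls depended on which libraries were fitted. In the fit of all 9 libraries 0 of 44 members passed, as did 0 of 19091 genes (0% called), while 11 members (25%) and 18% of all genes had an unadjusted p under 0.05. Without Kmo_AngII replicate 1 the same fit called 5 members and 1576 of 19742 genes, and without Kmo_AngII replicate 2 or 3 it called 0 members and 0 genes. DESeq2 on the 9 libraries called 1 member, Usp46, among 514 genes of 19091, and limma-voom 0.

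The 4 members called higher in WA have different roles. Usp46, which WDR48 activates as it does Usp12 and Usp1, had 11.9 CPM in the WA library labelled AngII and 14.0 and 16.6 in those labelled Ctrl. In WC it had 6.62 and 8.80 CPM in the libraries labelled AngII and 6.77 in that labelled Ctrl. Every WA library thus lay above every WC library. The log2 difference was 0.95 ± 0.20 (adjusted p = 0.0122). Its relatives were not called, and the WA and WC values of Usp12 overlapped. Usp14, the proteasome-bound USP that trims chains from substrates, had 28.1, 36.9 and 39.4 CPM in WA and 22.4, 17.0 and 19.9 CPM in WC, without overlap. Its log2 difference was 0.83 ± 0.18 (adjusted p = 0.0150). Usp14 shares 2169 exon bases with Thoc1 on the opposite strand, and the strand setting of the counting is not given, so reads of the pair may be mixed. Usp13 had 119, 127 and 146 CPM in WA and 83.9, 84.8 and 87.8 CPM in WC. The WC libraries were nearly level, and the log2 difference was 0.63 ± 0.17 (adjusted p = 0.0331). Usp5, its paralogue that takes apart free ubiquitin chains, was not called, and its WA values (22.7 to 34.4 CPM) overlapped those of WC (18.6 to 23.2 CPM). Usp47, a paralogue of Usp7 that acts on DNA polymerase beta in base excision repair, had 73.5, 77.2 and 77.5 CPM in WA and 56.8, 54.3 and 47.0 CPM in WC. Its log2 difference was 0.54 ± 0.16 (adjusted p = 0.0470).

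Of the 5 members called lower in WA, 4 were in a group of histone and chromatin enzymes drawn up with results known. Usp3, a histone H2A deubiquitinase, had 13.3, 13.6 and 13.1 CPM in WA and 24.5, 23.8 and 19.4 CPM in WC. The WA libraries differed among themselves by an SD of 0.288 CPM. The log2 difference was -0.75 ± 0.17 (adjusted p = 0.0151). Usp49, a histone H2B deubiquitinase, had 6.64 ± 0.784 CPM in WA and 11.3 ± 1.31 CPM in WC (SD, n = 3 each), with a log2 difference of -0.75 ± 0.19 (edgeR adjusted p = 0.0251). Usp49 shares 4392 exon bases on the same strand with Gm20517, so its counts are uncertain. Usp48, which removes ubiquitin from histone H2A, had 51.5, 40.1 and 34.0 CPM in WA and 63.4, 75.5 and 61.7 CPM in WC (log2 difference -0.66 ± 0.19, adjusted p = 0.0430). Usp36, the nucleolar USP, had 30.2 ± 4.78 CPM in WA and 47.2 ± 7.73 CPM in WC (log2 difference -0.63 ± 0.19, edgeR adjusted p = 0.0456). The fifth, Usp53, had 4.33, 5.53 and 4.85 CPM in WA and 8.36, 9.81 and 8.33 CPM in WC. Its log2 difference was -0.84 ± 0.20 (adjusted p = 0.0199), the lowest value among the called members. Of all 12 members grouped as histone and chromatin enzymes, 10 were tested, 0 were called higher and 4 lower in WA, with a median log2 difference of -0.53, beside 8.06% and 5.25% of all genes called and a median of -0.01. Of the other role groups, the 3 members for proteasome and free chains had 2 called higher and a median of 0.63. The 3 WDR48-activated members had 1 called higher and a median of 0.10. The 6 tested cell cycle, clock and damage members had 1 called higher, 6 positive differences and a median of 0.42. The 4 members without the usual activity had 1 called lower and a median of -0.63. The 6 membrane traffic members had 0 calls, 0 positive differences and a median of -0.28, and the 6 tested signalling and 6 tested remaining members had 0 calls and medians of 0.20 and -0.25. These groups were drawn up with results known and carry no test.

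**Figure D2:**
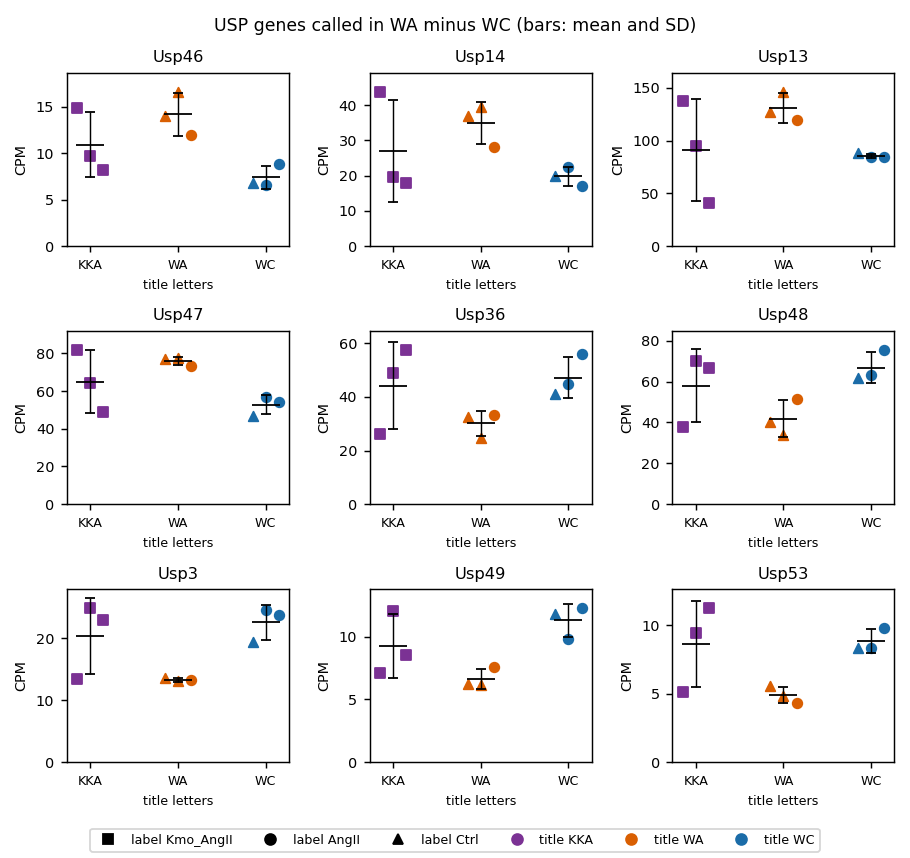
CPM of the 9 USP genes called between WA and WC, for KKA, WA and WC libraries in that order, with the shape giving the treatment label and bars giving mean and SD of 3 libraries. In each gene WA and WC do not overlap, and the library labelled Kmo_AngII replicate 1 (the leftmost KKA point) lies by the WA libraries.

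**Figure D3:**
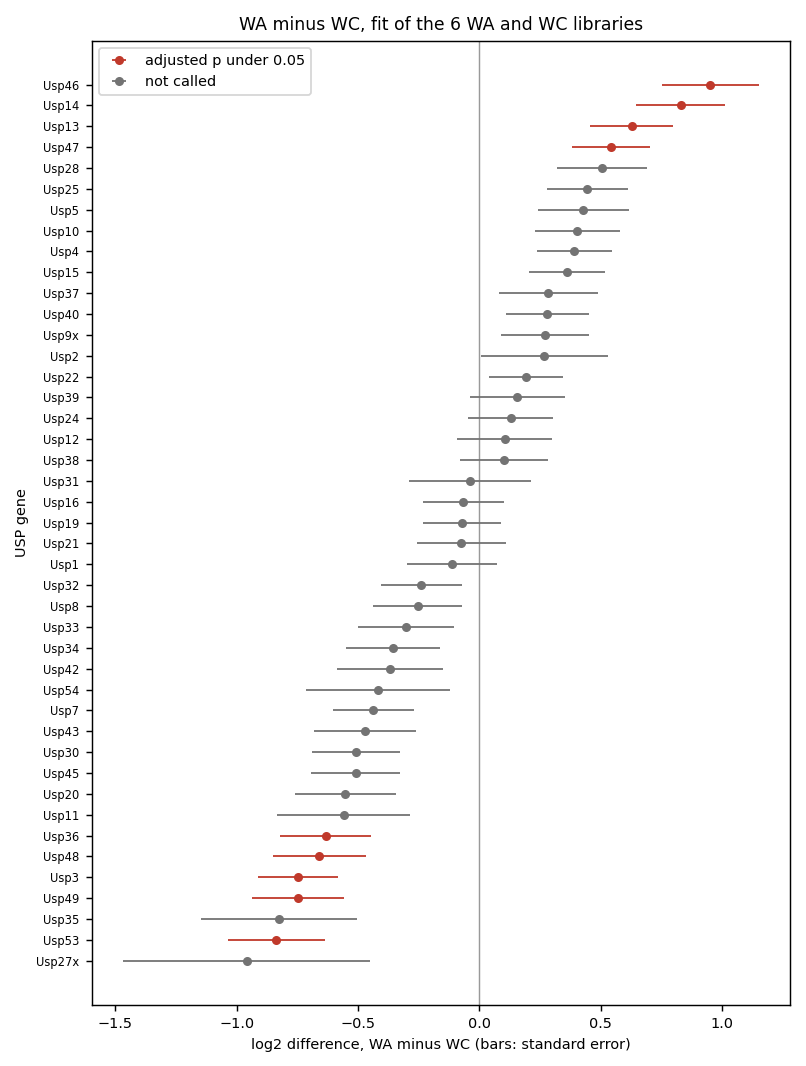
Log2 difference, WA minus WC, with its standard error, for 43 of the 44 tested USP genes in the fit of 6 libraries. Called genes are red and run from 0.95 (Usp46) to -0.84 (Usp53), and Usp50, whose SE of 2.09 would set the scale, is not drawn.

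The regions upstream of 4 of these genes are shown as examples of both directions, with Usp46 and Usp13 higher and Usp3 and Usp49 lower in WA. They were picked with these results known and are not the 4 largest differences. Each sequence holds the 250 bases before the annotated start, 5′ to 3′ on the gene's strand, from RefSeq on GRCm38.p6, which is not the build named for the counts. Capitals mark the GC box (GGGCGG) and the CCAAT box (CCAAT), each on either strand, and neighbouring GC boxes can overlap. Usp46 lies at chr5:74068412-74068661 on the minus strand, Usp13 at chr3:32817376-32817625 on the plus strand, Usp3 at chr9:66593116-66593365 on the minus strand and Usp49 at chr17:47630440-47630689 on the plus strand.
Usp46: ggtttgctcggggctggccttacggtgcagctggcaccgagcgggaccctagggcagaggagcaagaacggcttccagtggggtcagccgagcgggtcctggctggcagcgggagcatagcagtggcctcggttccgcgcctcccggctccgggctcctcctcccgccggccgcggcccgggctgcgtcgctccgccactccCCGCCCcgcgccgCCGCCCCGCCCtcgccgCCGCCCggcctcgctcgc
Usp13: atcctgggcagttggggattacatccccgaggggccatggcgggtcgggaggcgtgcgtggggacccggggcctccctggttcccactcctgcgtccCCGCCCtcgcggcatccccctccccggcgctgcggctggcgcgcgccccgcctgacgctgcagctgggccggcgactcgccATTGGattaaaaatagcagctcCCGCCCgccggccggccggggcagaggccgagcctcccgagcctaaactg
Usp3: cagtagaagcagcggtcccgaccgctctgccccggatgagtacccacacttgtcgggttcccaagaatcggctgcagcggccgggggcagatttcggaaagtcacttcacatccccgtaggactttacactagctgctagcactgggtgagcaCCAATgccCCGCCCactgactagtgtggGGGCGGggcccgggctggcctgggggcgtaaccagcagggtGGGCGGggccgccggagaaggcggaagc
Usp49: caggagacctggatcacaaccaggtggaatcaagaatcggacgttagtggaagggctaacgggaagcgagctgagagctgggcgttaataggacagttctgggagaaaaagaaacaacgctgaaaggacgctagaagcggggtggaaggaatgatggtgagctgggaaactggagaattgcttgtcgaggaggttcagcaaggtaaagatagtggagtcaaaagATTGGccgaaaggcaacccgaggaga
The window of Usp46 held 4 GC boxes, that of Usp13 had 2 with 1 CCAAT box, that of Usp3 had 3 with 1 CCAAT box, and that of Usp49 had 1 CCAAT box and no GC box. A GC box was present in 25 of the 38 members whose windows were searched, and in 32.7% of all 32851 windows. The search did not cover all 49 members, and those not covered may still have a window. A CCAAT box was present in 9 of 38 and in 33.8%. The E-box CACGTG was found in 3 of the 38 members (Usp4, Usp16 and Usp31) and in 6.02% of all windows. A match describes letters only, and both directions of change occurred beside a GC box or a CCAAT box.

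With the called genes included, 21 of 44 members (47.7%) did not overlap between WA and WC, against 34.7% of all genes. Of these, 11 were higher in WA (25%, against 17.1% of all genes) and 10 lower (22.7%, against 17.6%). Those without a call included Usp28 (log2 difference 0.50 ± 0.19, edgeR adjusted p = 0.0956) and its paralogue Usp25 (0.44 ± 0.17, adjusted p = 0.102). They also included Usp30, which removes ubiquitin from mitochondria (-0.51 ± 0.18, adjusted p = 0.0853), and Usp45, a DNA repair enzyme (-0.51 ± 0.18, adjusted p = 0.0886). The paralogues Usp7 and Usp47 had differences of opposite sign, -0.44 ± 0.17 (adjusted p = 0.103) and 0.54 ± 0.16 (adjusted p = 0.0470).

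The 9 calls were sensitive to scaling and to single libraries. When libraries were scaled by size alone 0 of 44 members and 232 of 18111 genes were called. The median log2 difference was then -0.40 over the members and -0.32 over all genes. With the treatment label as a covariate 5 members were called (Usp3, Usp14, Usp46, Usp49 and Usp53), beside 1946 of 18111 genes. Leaving out a WC library gave 1 call without Ctrl replicate 1 (Usp3), 7 without AngII replicate 1 (Usp54 among them in place of Usp13, Usp36 and Usp48) and 1 without AngII replicate 2 (Usp46). Leaving out a WA library gave 2 calls without Ctrl replicate 2 (Usp46 and Usp53), 0 without Ctrl replicate 3 and 12 without AngII replicate 3 (the 9 with Usp20, Usp25 and Usp35). Over all genes these fits called 1020 of 18869, 2434 of 18692 and 459 of 18741 without the WC libraries in the same order. Without the WA libraries they called 1270 of 19028, 524 of 18913 and 2980 of 18746. In each of these fits the 9 differences kept their sign.

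Other transcripts also differed between WA and WC, with 13.3% of all genes called in the fit of 6 libraries. Red cell markers were called lower in WA for 6 of 6 genes, and summed to 116 to 489.7 CPM in WA and 2945 to 7332 CPM in WC. Slc4a1 among them was at 0 in AngII replicate 3 and Ctrl replicate 2. Heart muscle markers were called higher for 3 of 8 genes (Actc1, Myl3 and Pln) and summed to 35860 to 45084 CPM in WA and 23108 to 28541 CPM in WC. Fibroblast markers were called higher for 3 of 7 genes (Col1a2, Col3a1 and Lum), with sums of 584 to 785 CPM in WA and 456 to 681 CPM in WC. Single markers were called for atrial muscle (Nppa, higher), macrophages (Csf1r, lower), neutrophils (Cxcr2, lower) and epicardium (Wt1, lower), out of 3, 7, 4 and 5 tested. None of the 7 endothelial, 7 smooth muscle and pericyte, 6 T and NK cell or 4 tested adipocyte markers was called. The part of these cell types in the USP differences was not tested. Mitochondrial shares of counts overlapped, at 30.3% to 52.6% in WA and 32.0% to 48.3% in WC.

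Some deubiquitinases of other families were also called between WA and WC in the fit of 6 libraries. The shares over all genes there were 13.3% called, 8.06% higher and 5.25% lower in WA. Of 4 ubiquitin C-terminal hydrolases, Uchl3 and the proteasome-bound Uchl5 were higher in WA (2 called, 0 lower). Of 13 tested OTU-family members, Otud6b and Otulin were higher and Otud5 was lower. Of 3 Josephins Josd1 was higher, and of 7 metalloprotease-type members Psmd14, the proteasome's own deubiquitinase, and Cops5, of the COP9 signalosome, were higher. Psmd14 had 22.1 ± 2.06 CPM in WA and 11.5 ± 1.64 CPM in WC (SD, n = 3 each; log2 difference 0.95 ± 0.17, edgeR adjusted p = 0.00723). The 3 deubiquitinases known to sit on the proteasome (Usp14, Uchl5 and Psmd14) were thus all called higher in WA, an observation made after their values were seen. None of 6 genes for ubiquitin and its activating enzymes, 5 MINDY and ZUP1 genes or Cyld was called. Of 8 genes for partners of USPs, among them Wdr48, only Gmps was called (higher, log2 difference 0.76 ± 0.18, edgeR adjusted p = 0.0211), and it encodes an enzyme that binds Usp7.

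The KKA libraries fell on different sides of this contrast. For the 9 called members, the library labelled Kmo_AngII replicate 1 lay nearer to the WA mean than to the WC mean in 9 of 9. Kmo_AngII replicate 2 did so in 1 (Usp47), as did Kmo_AngII replicate 3 (Usp49). Usp14, for example, had 43.8, 19.6 and 18.0 CPM in KKA, where WA averaged 34.8 and WC 19.7. Over all 2409 called genes the shares nearer to WA were 96.2%, 7.26% and 15.6% for Kmo_AngII replicates 1, 2 and 3. Over the 21 members without overlap the counts were 21, 4 and 5. Over all 6287 such genes the shares nearer to WA were 87.5%, 16.9% and 23.8% for the 3 libraries.

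**Figure D4:**
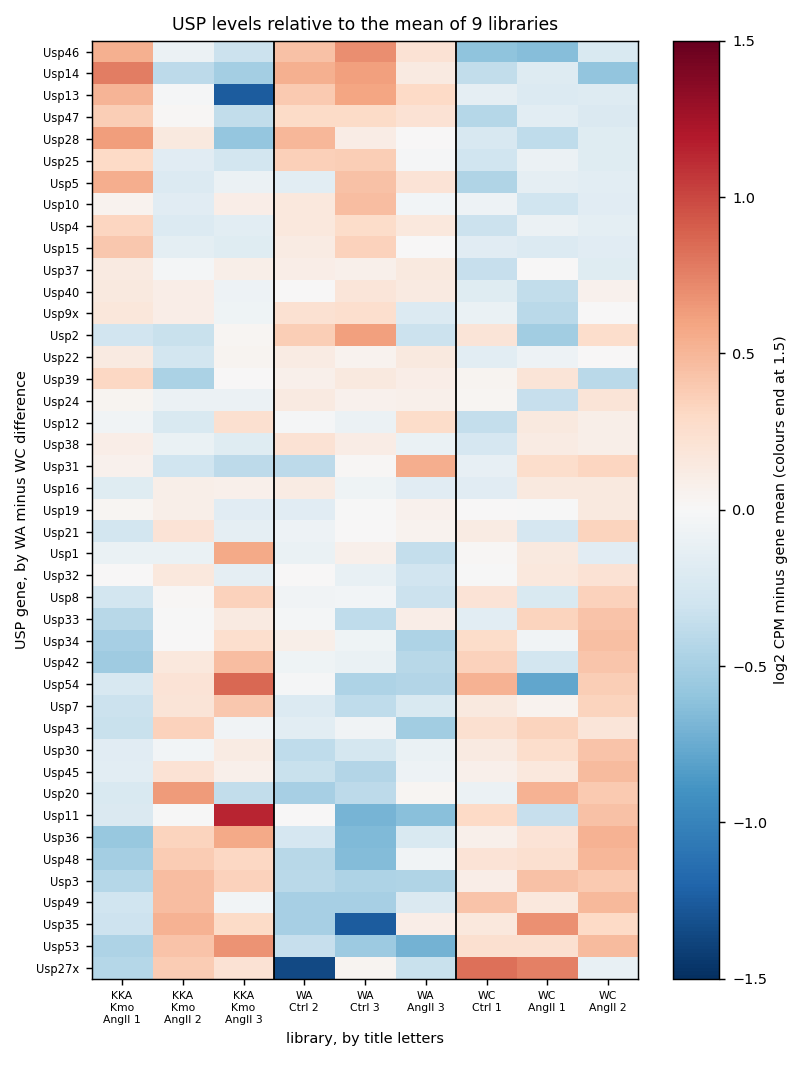
Log2 CPM of 43 USP genes relative to each gene's mean over 9 libraries, with libraries in columns by title letters (KKA, WA, WC) and genes ordered by the WA minus WC difference. The first KKA column resembles the WA columns at both ends of the order, and the third holds the lowest Usp13 (40.8 CPM) and the highest Usp11 (13.3 CPM).

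KKA minus WA and KKA minus WC each called 0 of 44 members and 0 of 19091 genes (0% called). At an unadjusted p under 0.05 there were 3 members against WA (6.82%, beside 7.05% of all genes) and 1 against WC (2.27%, beside 3.51%). DESeq2 called 0 members in both, beside 91 of 19091 genes against WA and 25 of 19091 against WC. The limma-voom fits called 0 members and 0 genes. Against WA the smallest p was that of Usp53, at 5.14, 9.46 and 11.2 CPM in KKA and 4.33 to 5.53 CPM in WA. Its log2 difference was 0.81 ± 0.28 (edgeR adjusted p = 0.681). Usp3 had 0.62 ± 0.24 (adjusted p = 0.683), Usp11 0.84 ± 0.38 (0.708), Usp49 0.47 ± 0.23 (0.718) and Usp36 0.55 ± 0.28 (0.718). Usp24 was the one member without overlap, at 47.8 to 52.4 CPM in KKA and 53.3 to 56.1 CPM in WA (2.27%, beside 8.18% of all genes, 5.66% higher and 2.52% lower). Without Kmo_AngII replicate 1, 4 members were called in KKA minus WA (Usp3, Usp36 and Usp53 higher, Usp14 lower), beside 1709 of 19742 genes. Without Kmo_AngII replicate 3 the difference of Usp11 was 0.30 and that of Usp36 0.32, and without Kmo_AngII replicate 2 that of Usp49 was 0.23. Against WC the smallest p was that of Usp46 (log2 difference 0.57 ± 0.26, adjusted p = 0.995). Next were Usp30 (-0.30 ± 0.19), Usp5 (0.36 ± 0.24), Usp14 (0.46 ± 0.32) and Usp28 (0.42 ± 0.30), all with an edgeR adjusted p of 0.995. Without Kmo_AngII replicate 1 the difference was 0.27 for Usp46, 0.09 for Usp5, 0.09 for Usp28 and -0.08 for Usp14. Without Kmo_AngII replicate 3 that of Usp28 was 0.68. Usp30 was the one member whose KKA values (8.32 to 10.2 CPM) lay wholly below those of WC (10.3 to 12.5 CPM), beside 3.93% of all genes wholly lower and 3.66% wholly higher (7.59% in all).

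AngII minus Ctrl sets the libraries labelled for the hormone against those labelled for the buffer. The title letters cross these labels and the labels could not be checked independently, so the values hold only for the labels as given. No member was called (0 of 44, with 0 of 19091 genes, 0% called), and 2 members (4.55%) had an unadjusted p under 0.05, beside 5.25% of all genes. DESeq2 called 0 members, beside 8 of 19091 genes, and limma-voom called 0 members and 0 genes. The median log2 difference was 0.01 over the members and 0.02 over all genes. Mitochondrially encoded genes took 32.0%, 39.5% and 30.3% of the counts in AngII and 48.3%, 52.6% and 43.4% in Ctrl, without overlap. A fit without these genes, the haemoglobin genes and Nppa also called 0 members and 0 of 18931 genes. Its median log2 difference over the members was -0.02. Any other part of the mitochondrial share in the values that follow was not tested. Usp31 had 8.90, 9.29 and 10.9 CPM in AngII and 6.80, 5.65 and 7.54 CPM in Ctrl. The groups did not overlap, and the log2 difference was 0.54 ± 0.22 (edgeR adjusted p = 0.890). Usp33 and Usp20 are paralogues known to bind the von Hippel-Lindau protein. Usp33 had 38.8, 41.5 and 32.9 CPM in AngII and 27.6, 30.1 and 23.7 CPM in Ctrl (log2 difference 0.48 ± 0.21). Usp20 had 59.9, 55.0 and 42.8 CPM in AngII and 39.5, 29.7 and 31.9 CPM in Ctrl (0.64 ± 0.29). Both had an edgeR adjusted p of 0.890, and neither overlapped between the groups. In all, 4 of 44 members were wholly higher in AngII (9.09%: Usp12, Usp20, Usp31 and Usp33) and 0 wholly lower, beside 6.44% and 5.74% of all genes (12.2% in all).

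Usp2 had 35.9, 61.5 and 41.1 CPM in AngII and 58.5, 66.2 and 78.9 CPM in Ctrl, with overlap at AngII replicate 2. The log2 difference was -0.56 ± 0.25 (edgeR adjusted p = 0.890). When libraries were scaled by size alone it was 0.08, beside a median of 0.67 over all genes. Usp35 had 6.28 ± 1.33 CPM in AngII and 3.59 ± 1.68 CPM in Ctrl (SD, n = 3 each; log2 difference 0.80 ± 0.37, edgeR adjusted p = 0.890). It was 1.21 without Ctrl replicate 1 and 0.52 without Ctrl replicate 3. Of the 15 clock genes, 0 were called in any of the 3 treatment comparisons. No other deubiquitinase family, ubiquitin gene, USP partner or cell type marker was called in them either.

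**Figure D5:**
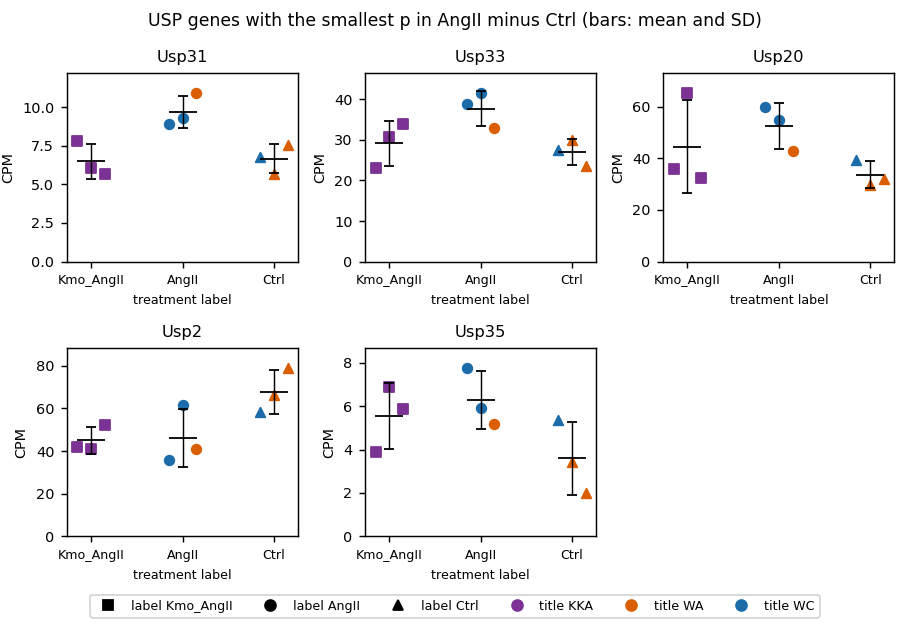
CPM of the 5 USP genes with the smallest p in AngII minus Ctrl, for Kmo_AngII, AngII and Ctrl libraries in that order, with colour giving the title letters and bars giving mean and SD of 3 libraries. AngII lies above Ctrl without overlap for Usp31, Usp33 and Usp20, and Usp2 and Usp35 overlap, and 0 of these differences passed the test.

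Whether the difference between AngII and Ctrl was alike in WA and WC libraries was tested as an interaction, with a single library in 2 of the 4 combinations. It called 0 of 45 tested members (Usp29 among them), beside 0.0185% of genes, and 1 member (2.22%) had an unadjusted p under 0.05, beside 1.62%. That member was Usp50 (edgeR adjusted p = 0.99997), which had 0 CPM in WA labelled AngII and 2.36 and 1.49 in WA labelled Ctrl, and 6.48 and 2.59 in WC labelled AngII and 0 in WC labelled Ctrl. DESeq2 called Usp50 alone of the members, among 29 of 21677 genes, and limma-voom called 0.

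Kmo_AngII minus AngII called 0 of 44 members (0% of all genes), and 1 had an unadjusted p under 0.05 (2.27%, beside 2.16%). It was Usp31, at 7.80, 6.04 and 5.66 CPM in Kmo_AngII and 8.90, 9.29 and 10.9 CPM in AngII. The groups did not overlap, beside 2.94% of all genes wholly lower and 3.22% wholly higher (6.17% in all), and the log2 difference was -0.58 ± 0.22 (edgeR adjusted p = 0.9998). Usp33 had -0.37 ± 0.21, Usp54 0.54 ± 0.39, Usp9x 0.26 ± 0.20 and Usp11 0.54 ± 0.43, with the same adjusted p. Without Kmo_AngII replicate 3 the difference of Usp54 was 0.20 and that of Usp11 0.00. Without AngII replicate 1 it was 0.32 for Usp54 and 0.16 for Usp9x, and without AngII replicate 2 it was 0.94 for Usp54 and 0.91 for Usp11. It was 0.34 for Usp11 without AngII replicate 3 and -0.23 for Usp33 without Kmo_AngII replicate 1. The AngII libraries serve in this comparison and in AngII minus Ctrl, so the opposite signs of Usp31 and Usp33 in both are not separate findings. In Kmo_AngII, AngII and Ctrl, Usp31 averaged 6.50 ± 1.14, 9.70 ± 1.06 and 6.66 ± 0.951 CPM (SD, n = 3 each).

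Kmo_AngII minus Ctrl also called 0 of 44 members (0% of all genes), with 1 at an unadjusted p under 0.05 (2.27%, beside 2.79%). Usp2 had 42.0, 40.9 and 52.4 CPM in Kmo_AngII, wholly below the Ctrl values given above. Its log2 difference was -0.59 ± 0.25 (edgeR adjusted p = 0.998). It was the one member without overlap, beside 2.64% of all genes wholly lower and 4.13% wholly higher (6.77% in all). Usp35 (0.63 ± 0.37), Usp20 (0.40 ± 0.29), Usp36 (0.43 ± 0.33) and Usp3 (0.41 ± 0.31) followed with the same adjusted p, and each overlapped between the groups. The difference of Usp20 was 0.03 without Kmo_AngII replicate 2, and that of Usp3 was 0.25 without that library and 0.64 without Kmo_AngII replicate 1. That of Usp36 was 0.20 without Kmo_AngII replicate 3, 0.70 without Kmo_AngII replicate 1 and 0.26 without Ctrl replicate 3. That of Usp35 was 1.03 without Ctrl replicate 1 and 0.34 without Ctrl replicate 3. DESeq2 called 0 members in Kmo_AngII minus AngII, beside 3 of 19091 genes, and 0 in Kmo_AngII minus Ctrl, beside 9 of 19091. In both, limma-voom called 0 members and 0 genes.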

How the data were processed

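Poly(A) RNA of 9 mouse heart samples was sequenced. The deposited table holds whole-number counts per Ensembl gene, per the file headers, not scaled for depth or length. The submitters' processing notes name Bowtie 0.12.2, HISAT2 2.0, StringTie 1.3.0 and build mm8 without roles. For the counting step, the annotation and strandedness, nothing is stated. Symbols matched 55141 of 55401 genes. Exon lengths, gene types and overlaps came from GENCODE M21 (GRCm38), another build, so lengths per gene are approximate. The test was that of edgeR 4.0.16 under R 4.3.3 (quasi-likelihood, robust, TMM, filterByExpr), with 9 libraries in 1 fit per grouping. The fit of the 6 WA and WC libraries was chosen because earlier results had shown more calls there. Each SE was derived from the difference and its F statistic. Alternatives, with DESeq2 1.42.0 and limma 3.58.1 among them, are given at the end. Fits were also run on simulated counts with 200 changed genes per comparison. How many of those were recovered is not reported here, so a count of 0 calls does not show that differences are absent. The members and lists were chosen with earlier results of these data known. In each comparison the called members and the 5 with the smallest p were named, beside the 5 steadiest and 5 most variable members and some index genes.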

Additional observations from a re-analysis of the deposited data

How the results depend on the processing

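In the WA minus WC fit of 6 libraries, 9 members and 2409 of 18111 genes were called. Scaling libraries by size alone gave 0 members and 232 genes, and the treatment label as a covariate 5 members and 1946 genes. The DESeq2 Wald test gave 10 members and 3437 genes, and limma-voom 8 members and 2253 genes. The absence of a low-count filter gave 8 members and 2352 of 29018 genes. Leaving out single libraries gave 0 to 12 members and 459 to 2980 genes. In the WA minus WC fit of 9 libraries (0 called), the DESeq2 Wald test gave 1 member, beside 514 of 19091 genes. Fitting only the libraries compared gave 9 members, beside 2409 of 18111 genes. Leaving out single libraries gave 0 to 5 members. The highest came without Kmo_AngII replicate 1, beside 1576 of 19742 genes. In KKA minus WA (0 called), leaving out single libraries gave 0 to 4 members. The highest came without Kmo_AngII replicate 1, beside 1709 of 19742 genes. The interaction (0 called) gave 1 with the DESeq2 Wald test. The cause of these changes was not tested. Under the other alternatives run, 0 members were called in AngII minus Ctrl, Kmo_AngII minus AngII, Kmo_AngII minus Ctrl and KKA minus WC. Among named members, 3 differences changed sign: Usp2 in AngII minus Ctrl was 0.084 and Usp9x in Kmo_AngII minus AngII was -0.045 when libraries were scaled by size alone, and Usp14 in KKA minus WC ranged from -0.077 to 0.68 over the fits that leave out a library. Scaling by size alone moved the median log2 difference of all genes to 0.67 in AngII minus Ctrl, -0.29 in Kmo_AngII minus AngII, 0.37 in Kmo_AngII minus Ctrl, -0.33 in WA minus WC, 0.16 in KKA minus WA and -0.13 in KKA minus WC. No paired analysis was possible because replicate numbers were given in sample order and pair no libraries.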
